A study of Mus musculus with 61 samples.

Results

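The transcriptional response to STAT5B N642H was examined in mouse CD4+ T cells that lacked their own Stat5a and Stat5b. The libraries were chosen by title: the 3 titled S5KO_CD4_Stat5b_N642H against the 3 titled S5KO_CD4, which received the empty vector, making 6 of the 61 libraries of the series. Naive CD4+ T cells (CD44 low, CD25-) from pooled lymph nodes and spleens of C57BL/6 mice labelled 2 months old were activated through the T cell receptor and CD28, transduced with a retrovirus that also encoded GFP, kept with IL-2 for 48 hours and sorted as live CD4+ GFP+ cells before total RNA sequencing. The same 5 vectors (empty, STAT5B, N642H, Y665F and Y665H) were put into cells of both backgrounds, giving 30 CD4 libraries with 3 per group. In the null background, Cd4-Cre removed floxed Stat5a and Stat5b late in thymic development, so the gene products were present in earlier stages. The genotype label reads Stat5a/b flox/flox also for libraries titled WT, so the background was taken from the titles. The labels do not say whether the replicates came from separate mice or cultures, and all p-values below measure only the spread between these libraries.

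STAT5A and STAT5B are transcription factors that JAK kinases phosphorylate when IL-2, IL-7, IL-15 and related cytokines bind receptors that carry the common gamma chain. Phosphorylated STAT5 binds the palindromic GAS element and, in T cells, raises the IL-2 receptor alpha chain, members of the SOCS family that damp the same pathway, and survival genes, while it restrains the follicular helper programme under Bcl6. N642H replaces an asparagine in the SH2 domain by histidine, is found in T cell leukemias and is known as an activating mutation. It served the study as a reference for strong activity.

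The residue lies in exon 16 of the Stat5b-202 transcript, the form carried by the vector, on the minus strand of chromosome 11 (GRCm38, codon at chr11:100787360-100787362). The spliced coding sequence around it is printed because it is the only position at which the N642H protein differs from the unmutated one; it joins 2 exons and spans chr11:100787339-100788372, and the capitals mark the mutated codon, 1 of 786, as the reference has it.
Stat5b around N642H: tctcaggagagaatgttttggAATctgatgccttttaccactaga

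Depth did not separate the groups. The empty-vector libraries held 26834419 to 36932724 reads assigned to genes and the N642H libraries 19735230 to 48757430. Levels below are CPM, a gene's reads as a share of its library's scaled total, set to a common scale over all 30 CD4 libraries. Markers of other lineages were low. The summed level of Cd8a and Cd8b1 was 15.1 to 20.3 CPM with empty vector and 9.07 to 12.7 CPM with N642H, and that of the 6 B cell markers 2.64 to 3.27 and 1.49 to 3.01 CPM. The 10 CD4 T cell markers summed to 4688 to 5515 CPM with empty vector and 3977 to 4190 CPM with N642H. Cd3d, Cd3e, Cd3g, Cd28 and Zap70 passed the adjusted p downward below the fold minimum. Thy1 was higher (1.04 ± 0.20), a call lost by size without empty-vector replicate 3 (0.91) or N642H replicate 2 (0.98). In bulk RNA, fewer cells of a kind and less RNA per cell cannot be told apart. N642H replicate 2 stood apart in granulocyte genes: its 5 neutrophil markers summed to 6.26 CPM, against 0.0550 to 0.173 CPM in the other libraries of both groups. S100a9 was 0 in all empty-vector libraries and 0.0527, 2.23 and 0 CPM with N642H. It was nonetheless among the genes called higher by edgeR, while DESeq2 called 0 of the 5 markers higher. Chil3, called with all libraries, had a log2 fold change of 0.95 without that replicate (edgeR quasi-likelihood F-test, Benjamini-Hochberg adjusted p = 0.808).

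The level of Stat5b checked the vector against the empty vector, but cannot tell N642H from another form of STAT5B. With empty vector its level was 2.78, 5.30 and 9.49 CPM, and with N642H it was 209, 255 and 186 CPM. WT cells with empty vector had 187, 209 and 207 CPM, so the vector brought Stat5b mRNA to the range of the native gene, with a difference of 0.11 ± 0.25 (log2 fold change ± SE, n = 3 per group, adjusted p = 0.954). Stat5a, which the vector does not carry, was 1.70, 3.13 and 6.66 CPM with empty vector and 2.19, 3.36 and 7.36 CPM with N642H. The ranges overlapped, and against WT cells Stat5a remained lower by 5.27 ± 0.57 on the log2 scale (adjusted p = 2.91e-06). Replicate 3 had the highest residual Stat5a and the empty-vector replicate 3 the highest residual Stat5b.

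N642H changed 579 of 20113 tested genes by more than 2-fold at an adjusted p under 0.05 (edgeR quasi-likelihood F-test over the 15 null libraries, Benjamini-Hochberg adjusted), and such genes are called here. They were 2.88% of the genes, of which 318 rose (1.58%) and 261 fell (1.30%). The rises were the larger: 158 genes rose and 30 fell beyond a log2 fold change of 2, and 57 rose and 0 fell beyond 4. Without one library the falls ranged from 167 (N642H replicate 1 left out) to 315. At any size of change, 1140 genes passed the adjusted p upward (5.67%) and 1200 downward (5.97%). DESeq2 called 366 higher and 294 lower, and 4931 genes had an unadjusted p under 0.05. The libraries of the groups did not overlap for 309 of the 318 higher and 255 of the 261 lower genes, while 15.7% and 12.9% of all tested genes were separated upward and downward. The called genes were chosen on these same libraries, so their separation is no independent support for the calls.

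**Figure D1:**
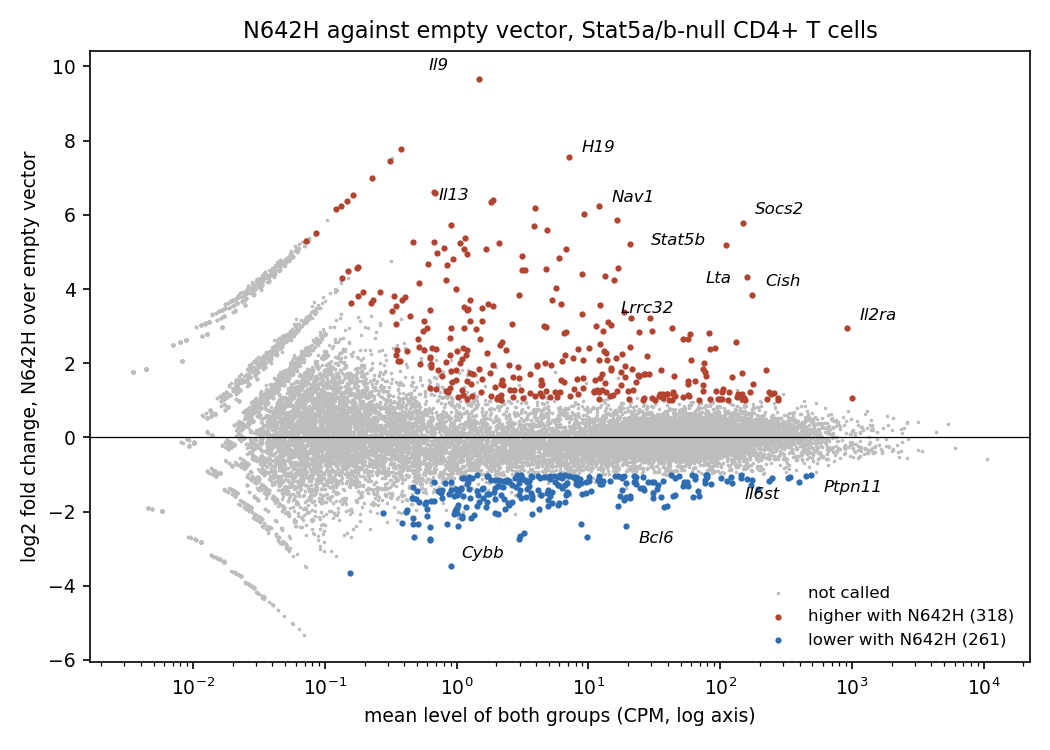
Log2 fold change of N642H over empty vector against the mean level of both groups in CPM (log axis) for each of the 20113 genes tested in null cells. The 318 genes called higher (red) reach a log2 fold change of 9.67 (Il9), whereas the 261 called lower (blue) lie mostly between -1 and -3.

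The SOCS family holds negative feedback genes of the cytokine pathway. Of 8 SOCS family genes tested, 4 rose and 0 fell, with a list median log2 fold change of 1.09 against 0.01 over all genes. The calls were the same in number with DESeq2, and Socs5 passed the adjusted p downward below the fold minimum. Socs2, a SOCS box protein that limits growth hormone and cytokine signalling, went from 2.86, 5.45 and 7.25 CPM to 305, 329.9 and 238 CPM. This was 55.1-fold (log2 5.78 ± 0.35, adjusted p = 2.37e-08). Cish, the cytokine-inducible inhibitor and a classical STAT5 target, went from 10.2, 25.6 and 31.1 CPM to 344, 366 and 275 CPM, a 14.4-fold rise (3.84 ± 0.32, adjusted p = 7.04e-07). The lowest N642H library of each was far above the highest empty-vector library. Socs1, a direct inhibitor of JAK kinases, rose 6.89-fold to 104 ± 16.7 CPM (mean ± SD, n = 3), and Socs3 rose 4.37-fold from 5.92 ± 3.31 to 26.5 ± 4.92 CPM.

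Receptors of the common gamma-chain cytokines moved unequally. Il2ra, which turns the IL-2 receptor into its high-affinity form, was 154, 191 and 268 CPM with empty vector and 1695, 1818 and 1333 CPM with N642H (log2 2.95 ± 0.22, adjusted p = 2.61e-07), with a wide gap between the groups. Il4ra rose 2.71-fold, from 94.2 ± 14.0 to 262 ± 40.1 CPM. The other 6 of the 8 receptor genes were not called. Il2rb passed the adjusted p below the fold minimum (0.60 ± 0.17, adjusted p = 0.0273), as did Il15ra downward (-0.46 ± 0.14, adjusted p = 0.0443), and the common gamma chain Il2rg was at 593 ± 27.3 CPM with empty vector and 512 ± 21.7 CPM with N642H (adjusted p = 0.138). Among 13 JAK, STAT and phosphatase genes, 0 rose and 1 fell, with a list median of -0.35. None was higher at an unadjusted p under 0.05 or with DESeq2. That gene was Ptpn11, encoding the phosphatase SHP2, at 715, 607 and 611 CPM against 353, 309 and 323 CPM. Its fold change of -1.01 ± 0.14 lay at the fold minimum, and the call was lost by size with DESeq2 (-0.98), without empty-vector replicate 1 (-0.89) and without N642H replicate 2 (-0.98) or 3 (-0.93). Of 27 other cytokine receptor genes, Il10ra rose (2.42-fold) and Il6st, the shared gp130 chain of IL-6 family receptors, fell 2.33-fold from 202, 191 and 122 to 73.7, 79.2 and 73.9 CPM.

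Cytokine genes were the group with the most calls. Of 20 helper cytokines tested, 7 rose (Il9, Il13, Il3, Il4, Csf2, Osm and Lif) and Csf1 fell, with a median of 0.87. Il9, a T cell and mast cell growth factor, had no read in any empty-vector library and 1.98, 4.39 and 2.47 CPM with N642H, which made it at least 98.1-fold higher against a floor of 3 reads over the empty-vector group. Il13, a type 2 cytokine, was 0, 0.116 and 0 CPM against 5.32, 3.28 and 2.52 CPM. The myeloid growth factor Il3 rose from 0.192, 0.116 and 0.483 to 7.59, 6.91 and 3.36 CPM (4.51 ± 0.73, adjusted p = 0.000664). Csf2, encoding GM-CSF, rose 6.99-fold, from 1.63 ± 0.968 to 11.5 ± 2.21 CPM. Il4, the signature type 2 cytokine, was at or below 1.16 CPM in all 6 libraries, and its call (adjusted p = 0.0465) was lost without empty-vector replicate 1 or 2 (adjusted p = 0.153 and 0.162) or without N642H replicate 1 or 2 (0.127 and 0.154). The T helper 1 cytokine Ifng (chosen after its values were seen) was 0.770, 2.23 and 3.24 CPM with empty vector and 1.98, 8.47 and 3.21 CPM with N642H, and these ranges overlapped (1.12 ± 0.68, adjusted p = 0.336). A fit with a replicate block called Ifng higher.

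Of 13 TNF superfamily ligands, Lta and Tnf rose and 0 fell, with 2 members lower at an unadjusted p under 0.05 and 0 called lower by DESeq2. Lymphotoxin alpha, encoded by Lta, went from 12.0, 14.3 and 18.4 CPM to 353, 363 and 200.4 CPM (20.1-fold, 4.33 ± 0.36, adjusted p = 6.41e-07). Tnf, the adjoining gene, went from 10.1, 10.6 and 16.8 CPM to 32.5, 29.0 and 31.8 CPM (2.42-fold). Neither gene's libraries overlapped between groups, as held upward for 15.7% of all tested genes. On the receptor side, 1 of 13 genes was called, the costimulatory receptor Cd27, which fell 2.11-fold. Without empty-vector replicate 2 or N642H replicate 1 the Cd27 change was -0.98 and -0.93, below the fold minimum. Among 12 chemokine ligands, Ccl3 and Ccl4 rose and Xcl1 fell, and Ccl3 went from 7.26, 8.87 and 24.2 to 48.3, 47.2 and 37.7 CPM. The Ccl4 call (1.07 ± 0.32, adjusted p = 0.0386) was lost on leaving out any library except empty-vector replicate 3 (adjusted p up to 0.168). DESeq2 did not call Ccl4 (adjusted p = 0.0532), while a fit with a replicate block did. The Xcl1 call was lost on leaving out empty-vector replicate 2 or 3 or N642H replicate 1 or 2 (adjusted p up to 0.102). Of 16 chemokine receptors, Ccr4, a receptor of type 2 and regulatory T cells, rose 3.17-fold, and Cxcr5 and Cxcr6 fell, the latter call being lost without N642H replicate 1 (-1.35). The median of the 16 was -0.59, with 1 higher and 8 lower at an unadjusted p under 0.05.

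**Figure D2:**
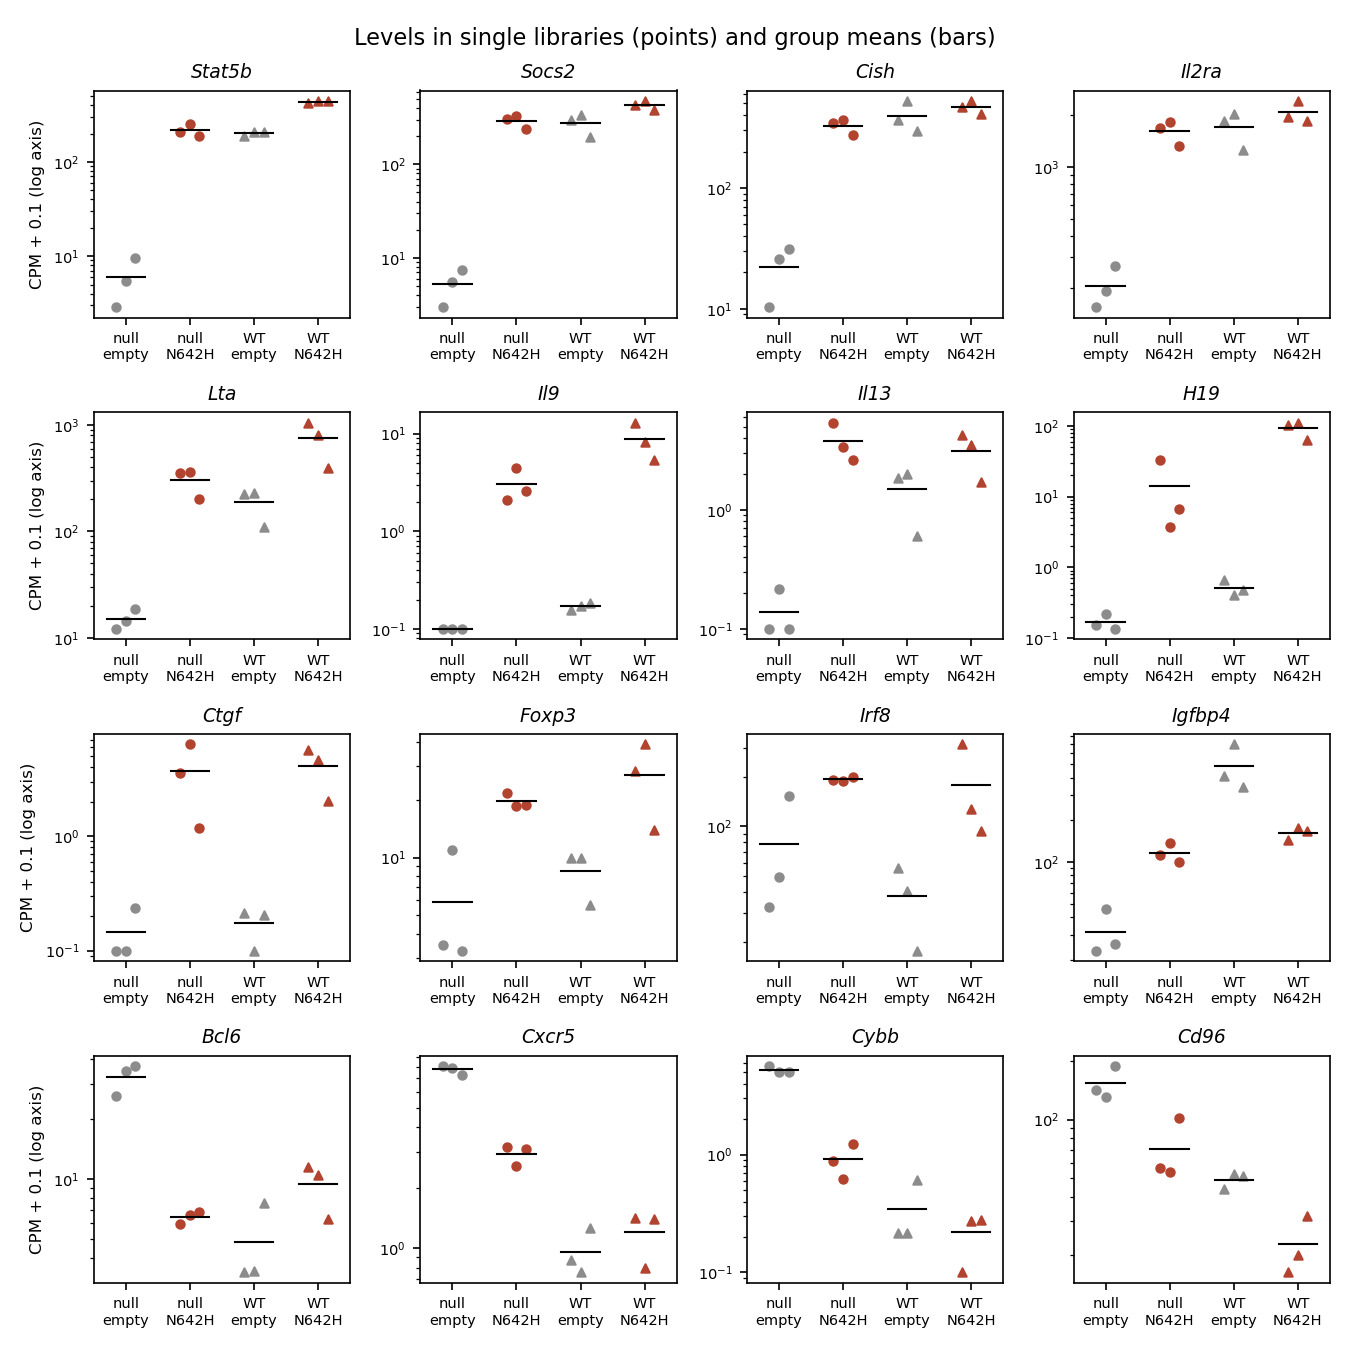
Levels of 16 genes in single libraries (points, CPM + 0.1 on a log axis; bars, group means) for null and WT cells with empty vector (grey) or N642H (red). Socs2, Cish and Il2ra in null cells with N642H overlap with WT cells with empty vector, Il9, H19 and Ctgf lie above it, and Igfbp4 lies below it.

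Of 12 follicular helper genes, 4 fell (Bcl6, Cxcr5, Tox2 and Slamf6), Sh2d1a, which encodes the signalling adaptor SAP, rose, and 7 were not called, with a median of -0.47. Bcl6, the repressor that directs follicular helper differentiation, fell from 25.9, 34.7 and 36.6 CPM to 5.85, 6.45 and 6.72 CPM (5.25-fold, -2.39 ± 0.22, adjusted p = 1.88e-06). Cxcr5, the receptor that guides cells into B cell follicles, was 7.97, 7.80 and 7.21 CPM against 3.08, 2.48 and 3.01 CPM. Slamf6 fell 2.62-fold. Tox2 fell 3.81-fold, although that call was lost without empty-vector replicate 3 (adjusted p = 0.0702) or N642H replicate 1 (0.0937).

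Of 17 regulatory T cell genes, 5 rose (Foxp3, Ikzf4, Il2ra, Lrrc32 and Gpr83) and Nt5e fell, with a median of 0.41. The Nt5e call was lost by size without empty-vector replicate 1 (-0.87). Lrrc32, encoding GARP, the surface anchor of latent TGF-beta, went from 1.54, 2.38 and 4.69 CPM to 25.5, 25.6 and 24.8 CPM (8.69-fold). Ikzf4, the Ikaros family factor Eos, rose 3.27-fold to 41.2 ± 2.77 CPM, and Gpr83 rose 4.22-fold. Foxp3, the lineage factor of regulatory T cells, was 3.41, 10.8 and 3.18 CPM with empty vector and 21.6, 18.5 and 18.7 CPM with N642H. Its groups did not overlap, but the call (1.71 ± 0.48, adjusted p = 0.0257) was lost without empty-vector replicate 1 or 3 or N642H replicate 1 or 2 (adjusted p = 0.0966, 0.0819, 0.0743 and 0.0617).

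Over the 29 lineage factors, 4 rose (Foxp3, Ikzf4, Batf3 and Nfil3) and 3 fell (Bcl6, Rora and Tox2), and the list median was -0.08. The Nfil3 call was lost by size without empty-vector replicate 2 (0.98) or N642H replicate 2 (0.94). Batf3, an AP-1 family factor known from dendritic cells and T helper 9 cells, went from 0.192, 0.551 and 1.21 CPM to 11.6, 10.2 and 10.3 CPM. The 5 dendritic cell markers, Batf3 among them, summed to 10.6 to 12.1 CPM with N642H, so nearly all of that sum was Batf3. Tbx21, the T helper 1 factor, was 4.34, 9.80 and 24.6 CPM with empty vector and 5.38, 13.2 and 23.8 CPM with N642H, and Gata3, the T helper 2 factor, was 67.4 ± 7.85 and 92.9 ± 11.6 CPM (adjusted p = 0.974 and 0.144). Irf8, a factor the study names as a STAT5 target, was not called: it was 32.3, 49.4 and 152 CPM with empty vector and 189.5, 189 and 199 CPM with N642H (1.27 ± 0.43, adjusted p = 0.0654). Empty-vector replicate 3 decided that value, and without it the log2 fold change was 2.21 (adjusted p = 0.000437). A fit with a replicate block also called Irf8 higher. The study's other named targets, Socs2, Cish, Lta and Il2ra, were all called higher, which is no independent evidence since they were picked on these samples.

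Survival and growth genes moved in few members. Of 17 BCL2 family genes, the anti-apoptotic Bcl2 rose from 155, 157 and 129.8 to 312, 388 and 308 CPM (2.23-fold) and the pro-apoptotic Bmf fell, a call lost without empty-vector replicate 1 (adjusted p = 0.117) or N642H replicate 2 (0.0952). Of 19 PIM, Myc and cyclin genes, 4 rose and 0 fell, with 2 lower at an unadjusted p under 0.05 and 0 called lower by DESeq2. The survival kinase gene Pim1 went from 16.9, 28.5 and 39.3 CPM to 160.1, 175 and 124 CPM (5.29-fold), Pim3 rose 2.16-fold and Myc 2.36-fold, from 98.8 ± 30.2 to 239 ± 4.87 CPM. Mycl, at or below 1.22 CPM, was the fourth, and its call was lost on leaving out any library but N642H replicate 3 (adjusted p up to 0.119). The amino acid transporter gene Slc7a5 rose 2.26-fold, the only call among 12 transporters. Hk2, a hexokinase, was the only call of 14 glycolysis genes and lay at the fold minimum (1.00 ± 0.27, adjusted p = 0.0211), losing the call without empty-vector replicate 1 or 2 (adjusted p = 0.0874 and 0.0987) or N642H replicate 1 or 2 (0.0697 and 0.0601). Scd1, a fatty acid desaturase, was the only call of 20 sterol and lipid genes, rising from 4.52 ± 1.08 to 19.7 ± 7.34 CPM, and was lost without empty-vector replicate 2 or N642H replicate 1 (adjusted p = 0.0527 and 0.0564).

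Several programmes had no called gene. None of 20 cell cycle, 19 cytotoxic and NK, 13 integrin and 25 T cell receptor feedback genes was called by edgeR in the fit without a replicate block. At an unadjusted p under 0.05, 7, 0, 2 and 9 of them were higher and 0, 1, 1 and 4 lower, and DESeq2 called 1 of the receptor feedback genes. The cell cycle genes ranged from -0.02 to 0.50 on the log2 scale. The naive and quiescence list of 21 genes had a median of -0.42, with 3 calls downward (Pik3ip1, Dapl1 and Btg2) and Igfbp4 upward. Pik3ip1, an inhibitor of PI3K, fell 3.01-fold from 25.9 ± 5.39 to 8.97 ± 2.67 CPM. The Dapl1 call was lost without empty-vector replicate 2 or N642H replicate 1 or 2 (adjusted p = 0.0714, 0.114 and 0.0517), and that of the antiproliferative gene Btg2 by size without N642H replicate 1 (-0.998). The 14 checkpoint and costimulation genes had a median of -0.49, with 3 higher and 8 lower at an unadjusted p under 0.05. Of these 14, Cd160 fell 2.63-fold, from 50.5, 42.1 and 49.3 CPM to 17.5, 18.5 and 19.3 CPM. Cd96 fell as well, but only N642H replicate 3 could be left out with that call kept (adjusted p up to 0.147 without another library). DESeq2 did not call Cd96 (adjusted p = 0.0573), while a fit with a replicate block did.

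**Figure D3:**
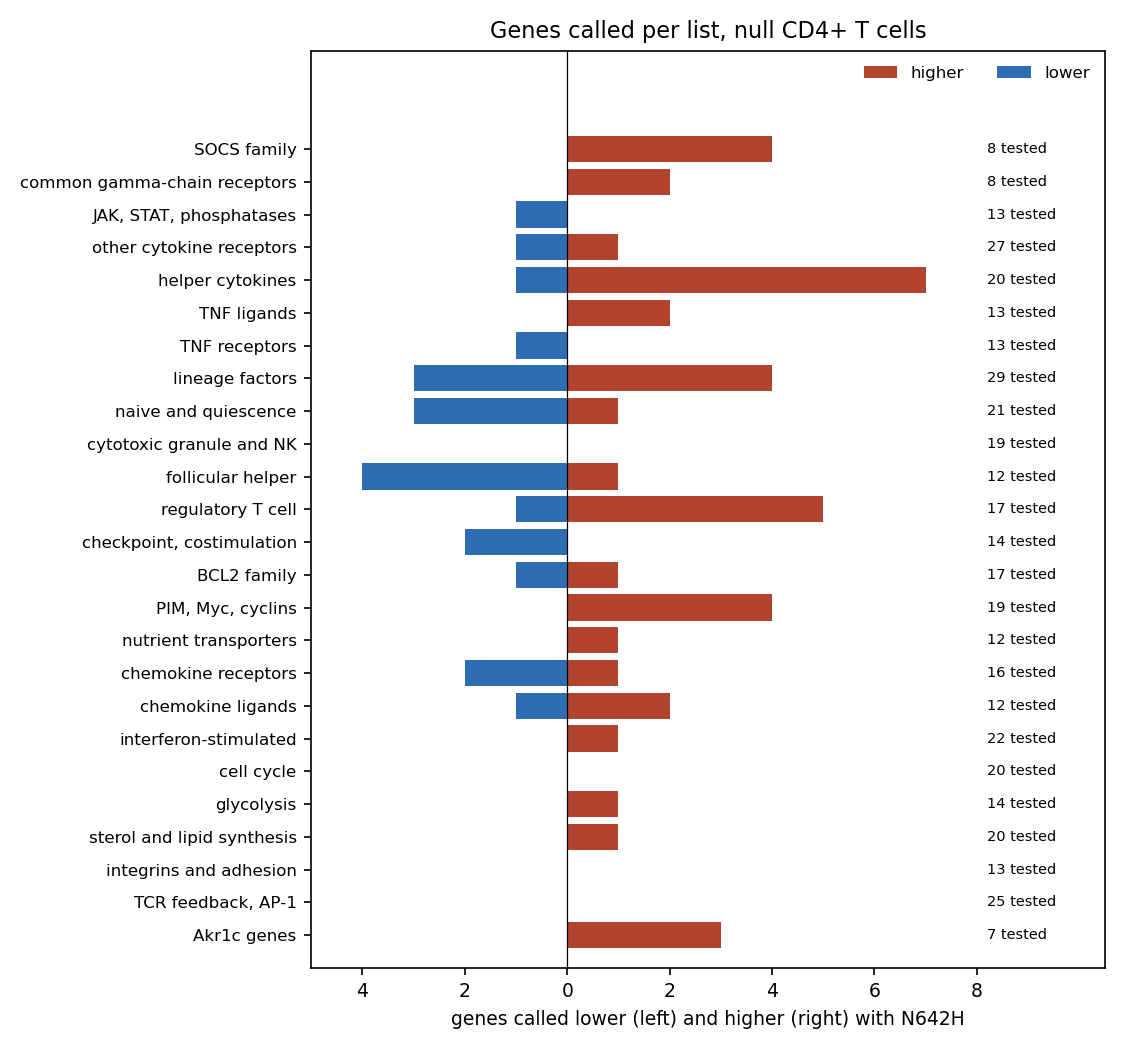
Number of genes called lower (left, blue) and higher (right, red) with N642H in null cells for each gene list, with the number tested at the right. Helper cytokines have the most calls upward (7 of 20) and follicular helper genes the most downward (4 of 12), against 1.58% and 1.30% of all tested genes.

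The largest rises outside these lists included genes little associated with T cells. H19, an imprinted long noncoding RNA, went from 0.0550, 0.116 and 0.0345 CPM to 32.5, 3.61 and 6.57 CPM. Ctgf, a secreted matricellular protein, was 0, 0 and 0.138 CPM against 3.48, 6.26 and 1.09 CPM, and Tead1, a DNA-binding partner of YAP for which Ctgf is a known target, was 0.247, 0.609 and 0.828 CPM against 33.3, 44.7 and 19.5 CPM. These 3 genes were named on condition that their libraries did not overlap between groups, so that separation is no result. N642H libraries differed among themselves, most of all in H19. Nav1, a microtubule-associated neuron navigator, rose from 0.319 ± 0.237 to 23.6 ± 8.63 CPM, the actin regulator Shroom3 from 0.109 ± 0.116 to 7.72 ± 2.43 CPM, and Stxbp6, a SNARE-binding protein, from 0.141 ± 0.0474 to 7.62 ± 2.45 CPM. Akr1c18, which encodes a 20-alpha-hydroxysteroid dehydrogenase, went from 0.275, 0.203 and 0.345 CPM to 17.2, 24.2 and 13.4 CPM (6.03 ± 0.51, adjusted p = 8.07e-07). Its relatives Akr1c12 (8.01-fold) and Akr1c13 (4.55-fold) rose as well, 3 of 7 genes tested in the cluster, and reads of such similar genes may have been dropped or split in counting.

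Among genes averaging 1 CPM or more whose libraries did not overlap, Bcl6 was among the 10 largest falls, and the other 9 were of low level. Cybb, a subunit of the phagocyte NADPH oxidase, fell 6.70-fold from 5.55, 4.96 and 4.97 CPM to 0.791, 0.525 and 1.14 CPM, and the claudin gene Cldn10 fell 6.32-fold from 5.19 ± 1.51 to 0.838 ± 0.0459 CPM. Rph3a, an exocytosis effector of Rab3 (5.98-fold), Ncald, Cald1, Vmn2r96 and the growth factor gene Hgf (4.14-fold) followed. Pydc4 and Slc30a3 also met the rule, but their calls were lost without N642H replicate 1 or 2 (adjusted p = 0.0684 and 0.0671) for the former, and without empty-vector replicate 3 or N642H replicate 2 or 3 (0.0631, 0.0706 and 0.0528) for the latter. Cybb is also a myeloid gene. The 6 myeloid markers summed to 4.59 to 6.67 CPM with empty vector and 3.87 to 5.54 CPM with N642H, and 1 of the 6, Itgam, was itself called lower, from 1.84, 1.54 and 1.21 CPM to 0.764, 0.672 and 0.791 CPM (-1.08 ± 0.31, adjusted p = 0.0276). The Itgam call was lost on leaving out any library except empty-vector replicate 3, with adjusted p up to 0.137. The part of these markers in the Cybb fall was not tested.

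How N642H acted beside native STAT5 was asked with the WT libraries, which share none with the null comparison. There, 202 of 20509 genes were called (0.985%), 162 higher (0.790%) and 40 lower (0.195%). That count was 101 and 70 without WT empty-vector replicates 1 and 2, and 77, 104 and 350 without WT N642H replicates 1 to 3. Of the 318 genes that rose in null cells, 278 (87.4%) had the same sign in WT cells and 51 were called there, and of the 261 that fell, 221 (84.7%) had the same sign and 16 were called. Among all 19627 genes tested in both backgrounds, 59.7% had the same sign. The median log2 fold change of the 318 genes was 1.99 in null and 0.71 in WT cells, and that of the 261 genes was -1.37 and -0.56, though these genes were chosen by their null values.

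**Figure D4:**
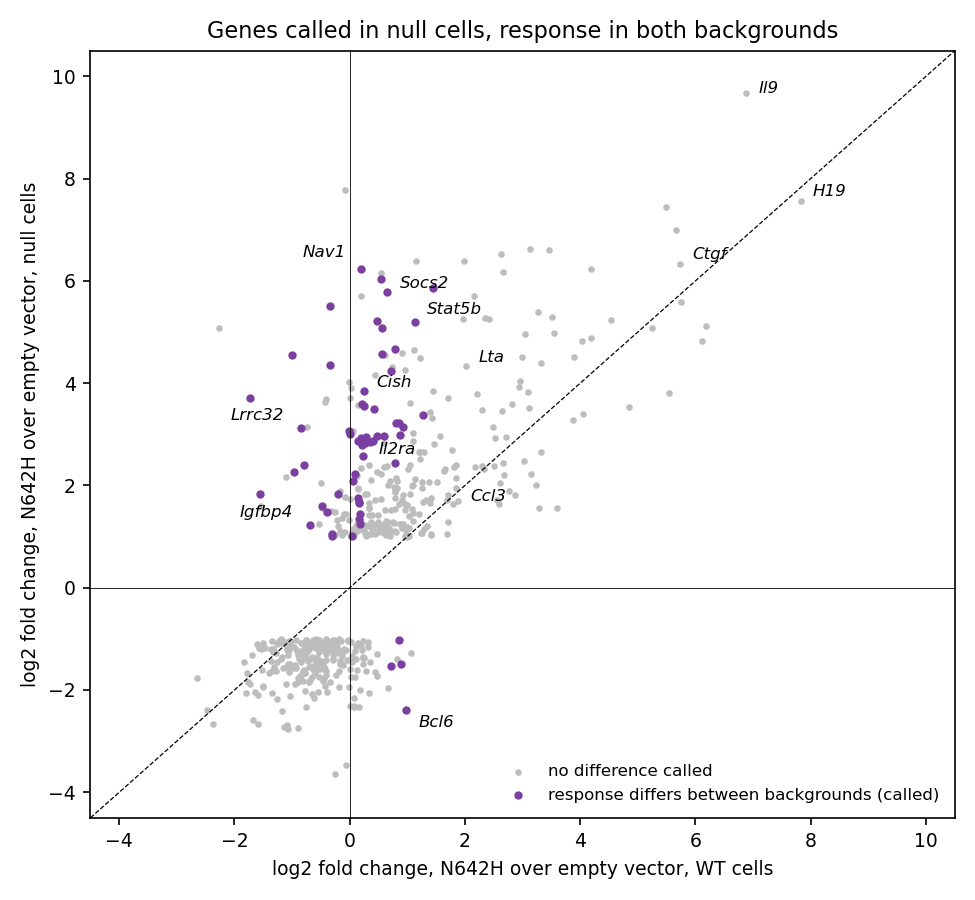
Log2 fold change of N642H over empty vector in null cells (vertical axis) against WT cells (horizontal axis) for the 579 genes called in null cells. Purple points are the 59 genes whose responses differed between backgrounds by the interaction test. Among them are Cish and Nav1 near 0 in WT cells, Socs2 with a much smaller rise in WT than in null cells, and Bcl6 with opposite signs. H19 lies on the dashed line of equal response.

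The difference of the responses was tested over all 30 CD4 libraries, and 75 of 21975 genes were called (0.341%), 66 larger (0.300%) and 9 smaller (0.0410%) in null cells. The count was 45 without WT empty-vector replicate 2. Of the 318 genes that rose, 55 rose more in null than in WT cells. Socs2 was 299.8, 336 and 197 CPM in WT cells with empty vector and 429, 479 and 381 CPM with N642H, and its response was larger in null cells by a log2 value of 5.19 ± 0.42 (adjusted p = 1.90e-08). Cish (3.65 ± 0.40), Il2ra (2.71 ± 0.33), Socs1 (2.63 ± 0.47), Il4ra, Ccr4, Lrrc32, Nav1 and Akr1c18 behaved likewise. None of these 9 was called in WT cells by edgeR. Other genes rose in both backgrounds. Il9 was 0.0572, 0.0704 and 0.0842 CPM in WT cells with empty vector and 12.9, 8.11 and 5.26 CPM with N642H, and H19 was 0.572, 0.305 and 0.379 CPM against 105, 112 and 62.5 CPM. The difference between backgrounds was 2.88 ± 2.09 for Il9 and -0.20 ± 3.18 for H19 (adjusted p = 0.664 and 1), and errors of that size leave large differences undetectable. Ctgf, Nrp2, Plaur, Pkib, Shroom3, Lta, Ccl3 and Gpr83 were also called higher in both.

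Igfbp4 was the 1 gene of the 579 called in opposite directions in the backgrounds. Igfbp4, encoding a binding protein of insulin-like growth factors, rose in null cells from 23.0, 46.3 and 25.5 to 112, 136 and 98.9 CPM and fell in WT cells from 408, 693 and 344 to 143, 174 and 165 CPM. Both changes were called, and their difference was 3.45 ± 0.47 (adjusted p = 9.18e-05). With N642H the ranges of the 2 backgrounds lay much closer to each other than with empty vector. Bcl6 fell in null cells, while in WT cells it was 3.29, 3.33 and 7.49 CPM with empty vector and 11.4, 10.4 and 6.19 CPM with N642H, which did not pass (0.98 ± 0.35, adjusted p = 0.251). The difference for Bcl6 was -3.32 ± 0.43 (adjusted p = 4.56e-05). Cd24a, encoding the heat-stable antigen, rose in WT cells from 2.44 ± 0.0974 to 40.8 ± 25.3 CPM, and in null cells it was 8.73 ± 1.18 and 11.6 ± 1.15 CPM (adjusted p = 0.355), a difference of -3.64 ± 0.66 (adjusted p = 0.00443).

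Null cells with N642H were next set beside WT cells with empty vector. In that comparison 165 of 21975 genes were called (0.751%), 118 higher (0.537%) and 47 lower (0.214%). The count was 78 and 64 without WT empty-vector replicates 1 and 2, and 100 without N642H replicate 2 or 3. Of the 318 genes that rose with N642H, 278 were not called, 31 lay above WT cells and 9 below them, with a median difference of 0.18. Of the 261 genes that fell, 252 were not called, 7 lay above and 2 below, with a median of 0.22. Mean levels with N642H were 105% of WT cells with empty vector for Socs2, 82.8% for Cish and 93.9% for Il2ra, from 1.87%, 5.63% and 11.9% with the empty vector in null cells. For Bcl6 the level fell from 689% to 135%. The differences of Socs2, Cish, Il2ra and Bcl6 from WT cells were 0.07 ± 0.27, -0.27 ± 0.27, -0.09 ± 0.23 and 0.42 ± 0.30 (adjusted p = 0.984, 0.812, 0.957 and 0.683), which does not show that the levels were equal. Genes above WT cells included Il9 (5.30 ± 0.80), Ctgf (5.60 ± 0.96), H19 (5.11 ± 0.94), Nrp2 (4.75 ± 0.62) and Ccl3 (2.11 ± 0.32). Below them were Igfbp4 (-2.06 ± 0.33), Lrrc32 (-1.67 ± 0.43) and Dapl1 (-1.94 ± 0.31). Cxcr5 fell with N642H but still lay above WT cells (1.71 ± 0.29, adjusted p = 0.00143).

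Against unmutated STAT5B in the same null background, N642H raised 14 of 20113 genes (0.0696%) and lowered 0 by edgeR, while DESeq2 called 47 higher and 1 lower and 1221 genes had an unadjusted p under 0.05. The 14 were Ctgf, Il9, Nrp2, Gap43, Plaur, Pkib, Myh11, Shroom3, Nppc, Stxbp6, Lta, Fsd1l, Rai14 and Gm13546, and all 14 were also among the 318 genes that rose over empty vector. Over the 318 genes that rose over empty vector the median difference from STAT5B was 0.77, and over the 261 that fell it was -0.55. Those genes were chosen with the same N642H libraries, so neither the medians nor the overlap of the 14 genes is an independent test. The count of 14 depended on single libraries. It was 7 without N642H replicate 1, 3 without N642H replicate 2 and 25 without N642H replicate 3, and 6, 3 and 3 without STAT5B replicates 1 to 3. Nrp2, a semaphorin and VEGF co-receptor, averaged 0.699 ± 0.235 CPM with STAT5B and 11.5 ± 7.42 CPM with N642H (4.05 ± 0.67, adjusted p = 0.0181). Il9 averaged 0.0847 ± 0.0442 and 2.95 ± 1.28 CPM (5.07 ± 0.70, adjusted p = 0.00843), and the urokinase receptor gene Plaur 0.609 ± 0.189 and 6.37 ± 1.98 CPM (3.34 ± 0.52, adjusted p = 0.0129). Lta averaged 88.2 ± 26.7 and 306 ± 91.3 CPM (1.77 ± 0.32, adjusted p = 0.0352). For Socs2 (116 ± 27.6 with STAT5B and 291 ± 47.7 CPM with N642H) and Il2ra (895 ± 178 and 1616 ± 252 CPM) the difference was not called (1.30 ± 0.28 and 0.83 ± 0.21, adjusted p = 0.111 and 0.257). Stat5b mRNA itself averaged 315 ± 60.4 CPM with STAT5B and 217 ± 35.0 CPM with N642H, a difference of -0.57 ± 0.29 (adjusted p = 0.853).

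Promoters of the called genes were searched for the GAS core TTCNNNGAA, which reads alike on both strands, in RefSeq promoters (GRCm38.p6) from 250 bases before to 50 after each start. The core was in 38 of 235 matched genes that rose (16.2%), 17 of 201 that fell (8.46%) and 8.81% of the 15534 distinct RefSeq genes with a promoter that 15546 tested symbols matched. With a spacer of 4 bases in place of 3, the shares were 7.66%, 10.4% and 6.998%. The stretches below show the core, in capitals, with up to 16 bases on each side and the centre's distance before the start, for a ligand gene, a feedback gene and a kinase inhibitor gene that rose, and for Bcl6, which fell and held 4 cores in 2 promoters.
Lta, 148 bases before the start, chr17:35205479-35205519, minus strand: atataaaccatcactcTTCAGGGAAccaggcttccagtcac
Lta, 12 bases before the start, chr17:35205352-35205383, minus strand: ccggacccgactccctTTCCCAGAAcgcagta
Socs3, 150 bases before the start, chr11:117969496-117969536, minus strand: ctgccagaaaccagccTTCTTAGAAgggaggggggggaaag
Pkib, 90 bases before the start, chr10:57631871-57631911, plus strand: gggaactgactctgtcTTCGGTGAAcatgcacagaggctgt
Bcl6, promoter 1, 114 bases before the start, chr16:23988946-23988986, minus strand: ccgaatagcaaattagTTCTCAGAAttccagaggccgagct
Bcl6, promoter 2, 164 bases before the start, chr16:23981427-23981467, minus strand: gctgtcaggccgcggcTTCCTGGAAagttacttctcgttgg
Bcl6, promoter 2, 118 bases before the start, chr16:23981381-23981421, minus strand: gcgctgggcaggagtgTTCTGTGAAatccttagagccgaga
Bcl6, promoter 2, 84 bases before the start, chr16:23981347-23981387, minus strand: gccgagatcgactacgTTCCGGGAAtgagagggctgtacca
None of these stretches overlapped an exon of the GENCODE annotation of the same build. In Lta, Socs3 and promoter 2 of Bcl6 the stretches lay inside the annotated RefSeq gene, so the start used there was an internal one. A match is a description of the sequence and says nothing of binding in these cells.

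Some called genes lay side by side: 59 of the 318 higher genes (18.6%) and 39 of the 260 lower genes that could be placed (15%) had a gene called in the same direction next to them in the order of 20049 placed genes, in 28 and 18 runs. Of all tested genes, 1.58% were called higher and 1.30% lower. How often scattered calls would adjoin was not worked out, so these counts are a description only. Among the runs were Csf2, Il3 and Acsl6 (chr11:54247270-54364756), Il4 and Il13 (chr11:53612460-53634702), Osm and Lif (chr11:4236785-4272514), Tnf and Lta (chr17:35199367-35205578), and Cish, Hemk1 and 6430571L13Rik (chr9:107296659-107349683). Hemk1 went from 11.7, 16.7 and 17.5 CPM to 112, 96.2 and 90.3 CPM, 6.33-fold. Among the genes that fell, Pydc4, Pyhin1 and Pydc3, all of the interferon-inducible PYHIN family, formed a run on chromosome 1, as did Ms4a4c, Ms4a4b and Ms4a6c on chromosome 19. The Ms4a4b call was lost by size without empty-vector replicate 1 (-0.90) or N642H replicate 1 (-0.91) or 2 (-0.98), and that of Ms4a6c without empty-vector replicate 2 (-0.96). Close relatives within such runs can share reads, and neighbours that overlap may share signal, so their counts are less certain.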

How the data were processed

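Total RNA of sorted cells was rRNA-depleted and sequenced from stranded libraries. The deposited values are raw counts per gene. Per the labels and the study's methods, the authors trimmed reads with Trimmomatic 0.36, aligned them to mm10 with STAR and counted them with HTSeq 0.9.1. The gene annotation and the strand setting are not given in the sources used here, so overlapping and antisense genes may share reads. Lines that name no gene, 29.3% to 34.2% of the reads of the 6 libraries, stayed out of totals and tests.

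Genes with at least 10 reads over a fit were tested with edgeR 4.0.16 (TMM, quasi-likelihood F-test, Benjamini-Hochberg adjustment over all genes of the fit; all adjusted p-values in the text come from it unless another tool is named). As in the study, called genes changed beyond 1 in log2 fold change with an adjusted p under 0.05. SE is the fold change over the square root of F. The null and WT fits held 15 libraries each, and the interaction and the comparison of null with WT cells all 30. Alternatives were RLE factors, DESeq2 1.42.0, other filters, no fold minimum, a removed factor, a replicate block, the groups alone and leaving out each library. The procedure was run on simulated counts that held no replicate effect and changed only genes of at least 1 CPM. Such a run does not cover replicate effects or calls at lower levels.

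Members and lists were chosen with earlier results of these data known. Named were Stat5b and Stat5a, the 10 largest rises and 10 largest falls of named genes at a mean of at least 1 CPM with no overlap between libraries, called list members (values for at most 5 per list) and the largest calls against STAT5B and between backgrounds. Other genes, including Il2rb, Il15ra, Il2rg, Tbx21, Gata3, Ifng, Chil3, S100a9 and Hemk1, were chosen after their values were seen. The 31 libraries that are not CD4 were not used.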

Additional observations from a re-analysis of the deposited data

Results flagged for a closer look

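For the following genes the response to N642H differed between null and WT cells by the interaction test (edgeR quasi-likelihood F-test, Benjamini-Hochberg adjusted over 21975 genes), and the values are log2 fold changes in null cells minus those in WT cells. The response was larger in null cells for Nav1 (6.09), the dynein regulatory gene Drc1 (5.61), Akr1c18 (5.54), Ifit1bl1 (5.49), Socs2 (5.19), the potassium channel gene Kcnj8 (4.79), Tead1 (4.46), Lrrc32 (4.03), Cish (3.65), Igfbp4 (3.45), Ifit3 (3.30), Akr1c12 (3.04), Il2ra (2.71), Socs1 (2.63), Ccr4 (1.55) and Il4ra (1.31). Stat5b (4.11) belongs to the design, since WT cells held the native gene. Ifit3 was the only 1 of 22 interferon-stimulated genes called in null cells, where it was 0.467, 0.609 and 0.656 CPM with empty vector and 2.53, 3.15 and 2.87 CPM with N642H. The list as a whole leaned the other way, with a median of -0.64 in null cells and -0.70 in WT cells. In null cells 2 of the 22 were higher and 4 lower at an unadjusted p under 0.05. A difference between backgrounds was not tested for the list.

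The response was smaller or opposite in null cells for Cd24a (-3.64), Bcl6 (-3.32), Smim3 (-2.89), Dnaaf3 (-2.44), Cpne2 (-2.34) and Pkhd1l1 (-2.32). In Cd24a and Cpne2 the WT replicate 3 with N642H was the lowest of its group, at 11.6 and 12.6 CPM, against at least 54.8 and 38.7 CPM in the other 2 libraries.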

How the results depend on the processing

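The 579 calls in null cells ranged from 411 to 715 on leaving out single libraries (230 to 400 higher and 167 to 315 lower, the lowest count of falls without N642H replicate 1), and with no fold minimum they were 2340 (1140 higher and 1200 lower). The other counts moved more. Against STAT5B, 14 calls became 8 with stricter filtering, 28 with no filter, 48 with DESeq2, 46 with those groups alone and 3 to 25 without single libraries. In WT cells, 202 became 435 with a removed factor, 347 with DESeq2, 312 with no fold minimum and 70 to 350 without single libraries. The interaction gave 129 and 171 calls in place of 75 with a removed factor and DESeq2, and 45 to 109 without single libraries, the lowest without WT empty-vector replicate 2. Null cells with N642H against WT cells with empty vector gave 303, 310, 299 and 273 calls in place of 165 with a removed factor, DESeq2, no fold minimum and those groups alone, and 64 to 239 without single libraries. The cause was not tested. Of the values of named genes in null cells under these settings, 829 kept direction and call, 61 lost the call, 4 gained it and 3 changed sign, all of Stat5a, which was not called: -0.23 without empty-vector replicate 1, -0.02 without replicate 2 and -0.43 without N642H replicate 3, in a range of -0.43 to 0.77 over single libraries left out.

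Replicate numbers are shared across groups, but the labels do not say what they mark. Over all tested genes, 2 of 3 same-number pairs of null empty-vector and N642H libraries had deviations correlated above 0.1 (0.0826 to 0.293), and 5 of 6 libraries correlated best with their own number. Over genes of at least 1 CPM, a choice made after seeing the data, it was 3 of 3 (0.450 to 0.478) and 6 of 6. Across all 5 vectors at that level, 30 of 30 same-number pairs exceeded 0.1 in null cells and 30 of 30 in WT cells (medians 0.466 and 0.635). Over all tested genes it was 18 and 21 of 30. These correlations are a hint from the data that the labels do not state as design, so the main tests carry no block. With the replicate block, calls in null cells went from 579 to 757 (404 higher and 353 lower, with 316 of the 318 and 258 of the 261 among them, and with Irf8 called at 1.53, adjusted p = 0.000779, Ifng at 1.06, adjusted p = 0.0239, and Fosl1 and Nr4a3 of the receptor feedback list called higher), against STAT5B to 66, in WT cells to 532, for the interaction to 185 (346 with a block of its own in each background, also added later) and for null N642H against WT empty vector to 397.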

Other observations

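Outside the lists, Kcnj8 and Drc1 also responded more in null than in WT cells by the interaction test (4.79 and 5.61). Kcnj8, a subunit of ATP-sensitive potassium channels, went in null cells from 1.26, 1.25 and 0.621 CPM with empty vector to 47.6, 55.5 and 17.8 CPM with N642H, and WT cells with empty vector had 30.2, 48.2 and 26.7 CPM. Drc1, a structural protein of motile cilia, went from 0.192, 0.493 and 0.483 CPM to 12.0, 11.5 and 3.86 CPM, with 25.5, 40.3 and 8.18 CPM in WT cells with empty vector. N642H replicate 3 was the lowest of its group in both genes.

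Gap43, a growth cone protein of neurons, went from 0.0550, 0.0580 and 0.104 CPM to between 0.692 and 3.21 CPM, and Pkib, an inhibitor of protein kinase A, from 0.110, 0.348 and 0.138 CPM to 5.24, 9.31 and 3.66 CPM. In both genes all 3 N642H libraries lay above all 3 empty-vector libraries, as in 15.7% of all tested genes. Both were picked as large calls against STAT5B, which used the same N642H libraries, so that separation is no independent evidence.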
